A study of Mus musculus with 15 samples.

Results

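MHC class I presentation genes were described here in CD4+ T cells, as a set of 10 genes chosen by name: H2-K1, H2-D1, H2-T23, B2m, Tap1, Tap2, Tapbp, Nlrc5, Erap1 and Irf1. All 10 were found among the 55421 genes of the count tables, of which 39155 had a read in at least 1 sample. The T cells came from C57BL/6 donors with floxed Prkaa1 alleles (PRKAA1fl/fl), which were left intact in WT donors and deleted by CD4-Cre in KO donors. Prkaa1 encodes AMPKα1, the catalytic subunit of the energy sensor AMPK that T cells use, and the floxed alleles were thus shared by both genotypes. CD4-Cre acts at the CD4+CD8+ stage of thymocyte development, so that KO T cells had lacked the gene long before the experiment. Naive WT or KO CD4+ T cells of young adult donors were transferred into Rag2-/- mice, a model of colitis. These mice have no T and B cells of their own but keep myeloid and NK cells. In the paper, recipients of WT T cells lost weight and had the more severe disease. Recipients of KO T cells kept their weight and had mild inflammation. Effects of genotype and of inflammation in the recipient can therefore not be told apart here. Donor T cells were recovered after 6 weeks from spleen and from mesenteric lymph nodes, abbreviated mLN, giving 4 WT and 4 KO spleen samples, 3 WT mLN samples (replicates 1, 2 and 4) and 4 KO mLN samples.

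Every nucleated cell presents peptides from its own proteins on MHC class I, and T cells do so strongly. The proteasome cuts proteins into peptides, the transporter made of TAP1 and TAP2 pumps them into the endoplasmic reticulum, ERAP1 trims them there, and tapasin (Tapbp) holds an empty class I molecule at the transporter until a peptide fits. The class I molecule pairs a heavy chain with β2-microglobulin (B2m). H2-K1 and H2-D1 encode the classical heavy chains that are read by CD8+ T cells, whereas H2-T23 encodes Qa-1, a non-classical heavy chain read mainly by NK cell receptors. Nlrc5 is the transactivator of class I genes, which reaches their promoters through DNA-binding partners, and Irf1 is a transcription factor that interferon-γ induces.

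The promoter sequences of the class I genes are shown because these regulators act there. Sequences were taken from RefSeq (GRCm38.p6), in windows of 300 bases that reach from 250 bases before to 50 bases after the start, and 8 of the 10 genes had such a window. In the sequences printed here, capitals mark matches on either strand to 5 motifs: the core of an interferon regulatory factor site (AANNGAAA), a GAS site, the element of interferon-γ response genes, (TTCNNNGAA), a κB site (GGGATTCCC), the CCAAT box (CCAAT) and an X2-like element (TGACGC). The stretches lie directly upstream of the annotated transcripts of H2-K1 (chr17:34000348-34000477, minus strand) and B2m (chr2:122147527-122147685, plus strand).
H2-K1: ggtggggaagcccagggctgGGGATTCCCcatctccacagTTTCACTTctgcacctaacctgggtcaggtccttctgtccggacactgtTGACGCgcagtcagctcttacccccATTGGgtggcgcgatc
B2m: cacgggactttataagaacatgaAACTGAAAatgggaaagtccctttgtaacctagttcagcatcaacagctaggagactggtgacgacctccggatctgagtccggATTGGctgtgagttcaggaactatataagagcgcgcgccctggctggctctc

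H2-K1 and H2-D1 shared their promoter layout. In both genes the interferon regulatory factor core began 20 bases after the start of the κB site, and the X2-like element began 69 bases after it. From the κB site to the start of H2-K1, 97 of 110 bases were identical in H2-D1 when aligned without gaps. The stretch from the κB site to the end of the interferon regulatory factor core matched in 27 of 28 bases (H2-K1 at chr17:34000430-34000457, minus strand, and H2-D1 at chr17:35262924-35262951, plus strand). In H2-D1 this stretch lies within the longest annotated first exon, but upstream of the RefSeq start.
H2-K1 stretch: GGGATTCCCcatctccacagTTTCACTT
H2-D1 stretch: GGGATTCCCcatctcctcagTTTCACTT

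The motifs were unevenly spread among the other genes of the set. An interferon regulatory factor core was found in 5 of the 8 genes (H2-K1, H2-D1, H2-T23, B2m and Erap1), and 23.9% of the 32851 promoter windows of the genome held one. The κB letters GGGATTCCC were found in H2-K1, H2-D1 and Irf1, against 0.353% of all windows, and the X2-like element in H2-K1 and H2-D1, against 7.40%. The κB share is that of this exact spelling and not of κB sites in general. H2-K1 and H2-D1 hold it in a stretch alike in 27 of 28 bases, so they are not separate finds. The GAS site was found in Irf1 alone among the 8 genes, against 8.30%, and the CCAAT box in 7 of the 8, Erap1 being the exception, against 37.4%. These matches describe the letters in the windows and say nothing about which factors bound there.

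Sequencing depth was even, with 9363940 to 11283439 reads counted on genes per sample (median 10545309), and the 10 genes together took 1.69% to 2.24% of these reads. The targeted gene was lower in every KO sample than in every WT sample of its organ: Prkaa1 stood at 46.3 to 54.1 CPM (counts per 1000000 reads on genes) in WT spleen and 18.4 to 21.7 in KO spleen, and at 49.0 to 60.9 in WT mLN and 21.4 to 32.2 in KO mLN. Prkaa2, the other catalytic subunit, had at most 1 read in any sample. All 7 T cell markers were present in every sample, summing to 5138 to 7086 CPM, whereas the 5 B cell markers summed to at most 8.32 CPM. Haemoglobin reads set 3 WT libraries apart: Hbb-bs stood at 434 to 999 CPM in WT spleen replicates 3 and 4 and WT mLN replicate 4, and at 8.03 to 59.8 CPM in the other 12.

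In the mouse genome (GRCm38), most of the set lies in the MHC region of chromosome 17: Tapbp (chr17:33915899-33929292), H2-K1 (chr17:33996017-34000347), Tap1 (chr17:34187553-34197225), Tap2 (chr17:34203527-34216321), H2-D1 (chr17:35262730-35267499) and H2-T23 (chr17:36029773-36032855). B2m (chr2:122147686-122153083), Nlrc5 (chr8:94434356-94527272), Erap1 (chr13:74639568-74693201) and Irf1 (chr11:53770014-53778374) lie elsewhere.

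Class I genes were among the most strongly expressed genes of these T cells. Per kilobase of exon, which allows a rough comparison of genes, B2m ranked 3 among 39072 genes with a read, H2-D1 ranked 6 and H2-K1 ranked 12. The length counted every base of any annotated exon, which can exceed the length of the main transcript. Group means of B2m ranged from 5263 ± 854 CPM per kilobase (SD, n = 4, WT spleen) to 7794 ± 427 (n = 4, KO mLN). H2-D1 lay between 2534 and 2590 CPM per kilobase and H2-K1 between 1365 and 1560 over the 4 groups. The non-classical H2-T23 was far lower, at 109 to 127 CPM per kilobase. The loading genes Tapbp (263 to 312 CPM per kilobase) and Tap2 (178 to 227) were above Tap1 (90.1 to 117), although TAP1 and TAP2 form 1 transporter together. Part of this gap came from the lengths, 5476 bases for Tap1 and 3781 for Tap2. In CPM it was smaller, with 820 ± 187 for Tap2 and 603 ± 142 for Tap1 in WT spleen (mean ± SD, n = 4). The lowest of the set were Irf1 (79.9 to 108 CPM per kilobase), Nlrc5 (26.8 to 53.6) and Erap1 (32.1 to 36.3), and even Erap1 ranked 1838 among the 39072 genes.

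Some of these levels are limited by how reads were counted. Reads that align to several places were left out by the authors, and 3.10% of the 75-base windows of H2-K1 transcripts, 5.56% of those of H2-D1 and 5.91% of those of H2-T23 occur unaltered in another gene, chiefly other class I heavy chains such as H2-Q10, H2-Q7 and H2-Q1. B2m shared none of its windows and Nlrc5 shared 0.0462%. Tapbp shared 18.6%, chiefly with Gm19412, which covers 24.9% of its exon bases on the opposite strand. Tap2 shared 8.27%, with Gm15821 and Gm20496, and 14.1% of its exon bases lie inside Gm15821 on the opposite strand. Erap1 shared 10.4%, all with Cast, which covers 11.5% of its exon bases on the opposite strand. Windows shared with such overlapping genes lie at the same place in the genome. They limit which gene a read is counted for and do not mark reads that align to several places. Levels of the H2 genes, Tapbp, Tap2 and Erap1 are therefore less certain than those of B2m and Nlrc5, and whether the shared reads differed between samples was not tested.

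**Figure D1:**
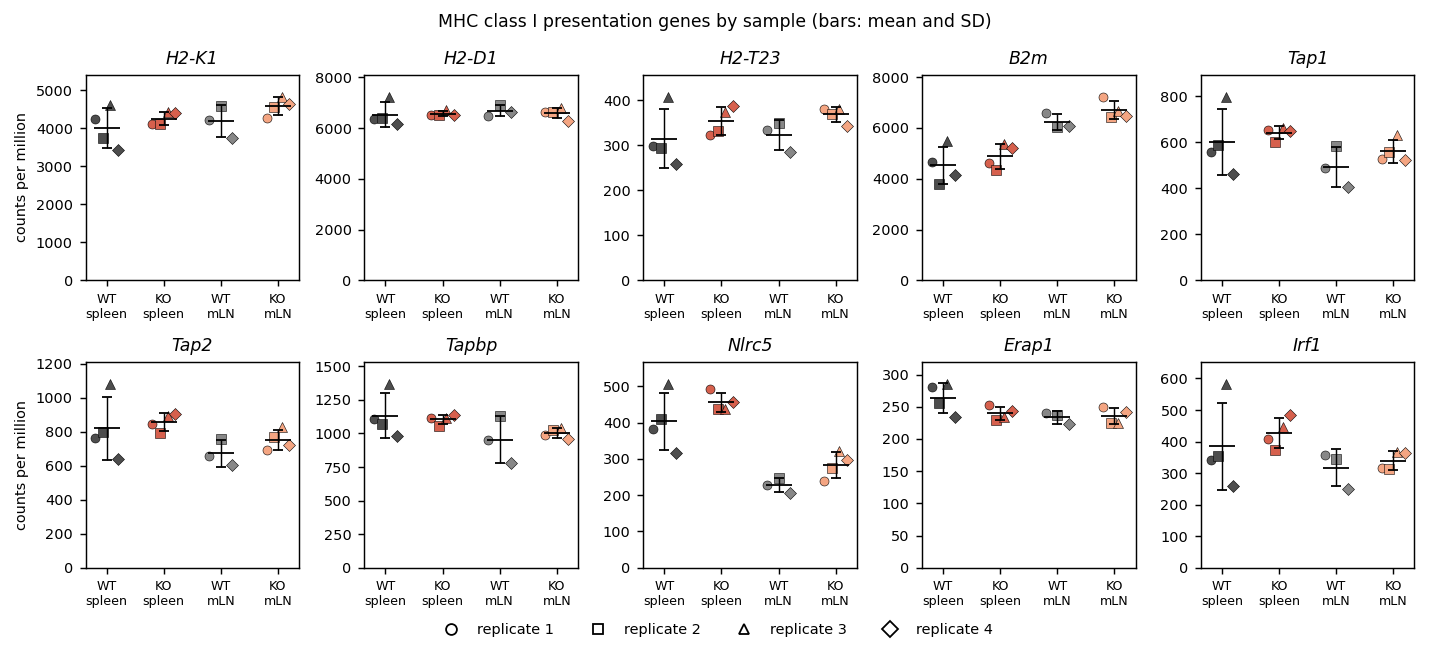
CPM of the 10 genes (1 panel each, linear axis from 0) in every sample, by genotype and organ. Symbols mark the replicate number and bars the mean and SD of each group (n = 4, WT mLN n = 3). Nlrc5 is lower and B2m higher in mLN than in spleen in both genotypes, and WT spleen replicate 3 (triangle) stands highest of its group in all 10 panels.

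The first question was whether the loss of AMPKα1 altered class I presentation genes. None of the 10 genes passed the test in either organ. By edgeR's quasi-likelihood test with Benjamini-Hochberg adjustment over all genes tested, 1.3% of 14254 genes were called in spleen at an adjusted p under 0.05 (0.751% lower and 0.547% higher in KO), and 0.641% of 14359 genes in mLN (0.292% lower and 0.348% higher). At such shares, a count of 0 among 10 genes is near the background. At an unadjusted p under 0.05, 0 of the 10 passed in spleen and 1 of 10, Nlrc5, passed in mLN, beside 2924 and 2253 genes in all. In bulk samples, fewer cells that express a gene and less RNA per cell cannot be told apart. The differences and their intervals are given by role.

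Neither classical heavy chain passed the test between WT and KO T cells. H2-D1 stood at 6351, 6394, 7243 and 6153 CPM in WT spleen and at 6535, 6523, 6703 and 6528 CPM in KO spleen. KO lay inside the range of WT, and the log2 fold change was 0.02 ± 0.08 (SE; 95% interval −0.16 to 0.20; edgeR adjusted p = 0.912). In mLN, H2-D1 stood at 6479, 6914 and 6649 CPM in WT and at 6619, 6652, 6780 and 6297 CPM in KO, with a log2 fold change of −0.03 ± 0.06 (95% interval −0.15 to 0.09). H2-D1 thus had the tightest bounds of the set in both organs. H2-K1 stood at 4240, 3752, 4620 and 3428 CPM in WT spleen and 4105, 4109, 4426 and 4404 CPM in KO spleen. In mLN it stood at 4217, 4588 and 3747 CPM in WT and 4286, 4560, 4838 and 4653 CPM in KO. The groups overlapped in both organs, with log2 fold changes of 0.10 ± 0.11 in spleen and 0.12 ± 0.07 in mLN (edgeR adjusted p = 0.647 and 0.474). The 95% intervals of H2-K1 reached from −0.14 to 0.34 in spleen and from −0.04 to 0.28 in mLN. For H2-T23, the log2 fold change was 0.18 in both organs (95% interval −0.13 to 0.50 in spleen and −0.02 to 0.38 in mLN).

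B2m, the shared light chain, was measured at 4656, 3797, 5493 and 4158 CPM in WT spleen and 4601, 4332, 5374 and 5212 CPM in KO spleen. The corresponding mLN values were 6597, 6044 and 6083 CPM in WT and 7233, 6442, 6669 and 6468 CPM in KO. The genotypes overlapped in both organs, and the log2 fold change was 0.12 ± 0.13 in spleen and 0.09 ± 0.07 in mLN. Among the genes for peptide supply, Tap1, Tap2 and Tapbp had log2 fold changes from −0.02 to 0.10 in spleen and from 0.06 to 0.17 in mLN, with adjusted p-values from 0.475 to 0.930. Erap1, the trimming enzyme, was the gene of the set with the lowest log2 fold change in spleen (−0.13 ± 0.08, 95% interval −0.31 to 0.06), while in mLN it was 0.0029 ± 0.08.

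Among the regulators, Nlrc5 had the highest log2 fold changes and Irf1 the widest intervals of the set in both organs. Nlrc5 stood at 383, 408, 506 and 315 CPM in WT spleen and at 492, 438, 437 and 456 CPM in KO spleen. In mLN, it stood at 228, 247 and 207 CPM in WT and at 240, 274, 322 and 296 CPM in KO. The genotypes overlapped in both organs, although 3 of the 4 KO mLN samples were above every WT mLN sample. The log2 fold change of Nlrc5 was 0.19 ± 0.13 in spleen (95% interval −0.11 to 0.48) and 0.30 ± 0.10 in mLN (95% interval 0.07 to 0.54, edgeR adjusted p = 0.205). Irf1 stood at 342, 353, 583 and 260 CPM in WT spleen and 408, 374, 445 and 486 CPM in KO spleen, so that WT samples lay on both sides of all KO samples. Its log2 fold change was 0.16 ± 0.22 in spleen (95% interval −0.32 to 0.65) and 0.09 ± 0.13 in mLN.

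Across the set, 8 of 10 log2 fold changes were above 0 in spleen and 9 of 10 in mLN, with medians of 0.10 and 0.11 beside −0.0041 and −0.0038 over all genes tested. The median in spleen rested on 2 WT samples: it was 0.25 without WT replicate 3 and 0.0012 without WT replicate 4. In mLN, it was 0.19 without WT replicate 2 and 0.05 without WT replicate 4. Over both organs, the 95% intervals of the 10 genes reached at most from 19.9% lower to 56.6% higher in KO, both bounds being those of Irf1 in spleen. Without the 2 WT spleen libraries with the most haemoglobin reads, an alternative chosen after seeing the data, 0 of the 10 genes were called in spleen and the median was 0.17. Summed markers of antigen-presenting cells (4 MHC class II genes) were 199 to 404 CPM in WT spleen and 357 to 703 in KO spleen, and 211 to 487 in WT mLN and 342 to 935 in KO mLN. Their part in the class I values was not tested.

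**Figure D2:**
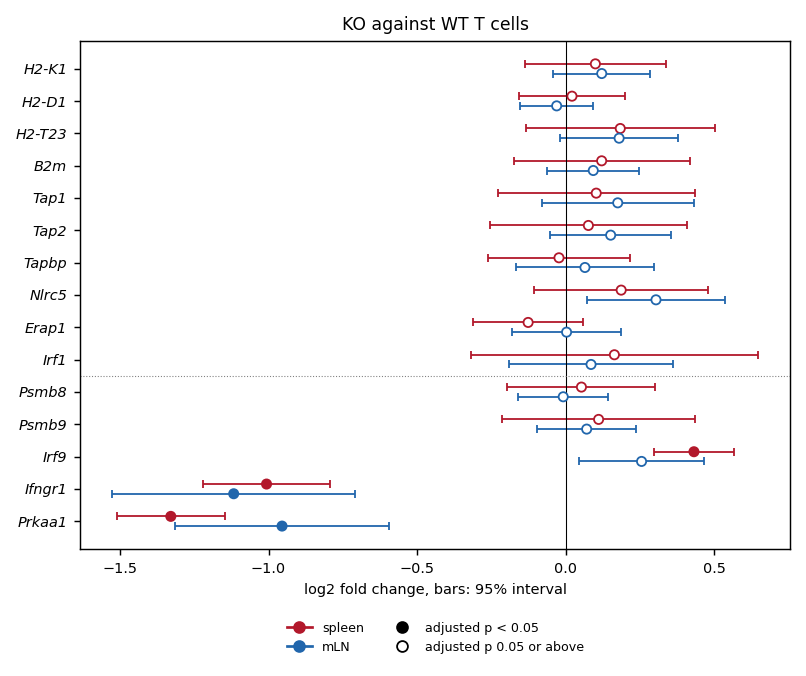
Log2 fold change of KO against WT T cells (x axis) with 95% intervals for the 10 genes (above the dotted line) and 5 related genes, in spleen (red) and mLN (blue), with filled points at an edgeR adjusted p under 0.05. The 10 genes lie between −0.13 and 0.30, whereas Ifngr1 and Prkaa1 lie between −1.33 and −0.95.

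The pathway around these genes was described from lists of related genes. Of the other class I heavy chains and class I-like genes, 0 of 11 tested were called in spleen and 0 of 12 in mLN (median log2 fold changes 0.14 and 0.18). Of the 10 genes for class I folding, loading and trimming, 0 were called in either organ (medians 0.08 and 0.10). Of the 5 immunoproteasome genes, 0 were called (medians 0.11 and 0.07). Psmb8 and Psmb9, catalytic subunits that interferon-γ places into the proteasome, had log2 fold changes of 0.05 ± 0.11 and 0.11 ± 0.15 in spleen and of −0.0084 ± 0.07 and 0.07 ± 0.08 in mLN.

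In these lists, the calls between genotypes lay among the interferon genes. Ifngr1, the ligand-binding chain of the interferon-γ receptor, was the only gene called among 14 of the interferon-γ pathway in either organ. It stood at 1102 to 1290 CPM in WT spleen and 547 to 695 CPM in KO spleen, and at 1628 to 1831 CPM in WT mLN and at most 1095 CPM in KO mLN. The groups did not overlap, and the log2 fold change was −1.01 ± 0.10 in spleen and −1.12 ± 0.19 in mLN (edgeR adjusted p = 0.00245 and 0.0326). The call in spleen held in 8 of 8 fits without 1 replicate, and the call in mLN in 1 of 7, with log2 fold changes from −1.32 to −0.98. Among 12 class I gene regulators, Irf9, a DNA-binding factor of the type I interferon response, rose in KO spleen (log2 fold change 0.43 ± 0.06, edgeR adjusted p = 0.0139, called in 5 of 8 fits without 1 replicate) and had 0.26 ± 0.10 in mLN (adjusted p = 0.235).

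Of 12 type I interferon response genes, 3 rose in KO spleen and 6 in KO mLN, and 0 fell, with medians of 0.95 and 1.18 on the log2 scale. Of all genes tested, 0.547% rose in KO spleen and 0.348% in KO mLN. The list was chosen with earlier results of these data known, so these counts are a description. Ifi27l2a rose in both organs, from 72.0 to 112 CPM in WT to 161 to 230 CPM in KO spleen, and from 112 to 148 CPM in WT to 264 to 335 CPM in KO mLN. Rtp4 and Mx1 also rose in both organs, by 1.33 ± 0.21 and 0.96 ± 0.20 on the log2 scale in spleen and 1.19 ± 0.21 and 1.51 ± 0.19 in mLN. Usp18 (1.66 ± 0.24), Isg15 (1.18 ± 0.18) and Ifit1 (1.71 ± 0.28) rose in mLN. Without 1 replicate, Ifi27l2a was called in 8 of 8 fits in spleen and 7 of 7 in mLN, Rtp4 in 4 of 8 and 1 of 7, and Mx1 in 1 of 8 and 4 of 7. Usp18, Isg15 and Ifit1 were called in 3, 2 and 1 of 7 fits in mLN, while every log2 fold change of these 6 genes was at least 0.98 in mLN and 0.76 in spleen.

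The second question was how the genes differed between the organs. Nlrc5 fell and B2m rose in mLN compared to spleen in both genotypes, and Irf1 fell in KO T cells. Of 14515 genes tested in WT, 10.8% were lower and 9.7% higher in mLN, against 1 of 10 and 1 of 10 in the set, and of 14240 genes tested in KO, 13.9% were lower and 11.4% higher, against 2 of 10 and 1 of 10. The set was thus called about as often as all genes, and the results concern these named genes.

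Nlrc5 differed most. In WT T cells it fell from 315 to 506 CPM in spleen (403 ± 79.4, mean ± SD, n = 4) to 207 to 247 CPM in mLN (227 ± 20.2, n = 3). In KO T cells it fell from 437 to 492 CPM (456 ± 25.6, n = 4) to 240 to 322 CPM (283 ± 34.7, n = 4). Spleen and mLN samples did not overlap in either genotype. The log2 fold change was −0.79 ± 0.16 in WT and −0.69 ± 0.08 in KO (edgeR adjusted p = 0.00799 and 0.00017), or 1.73 and 1.61 times lower in mLN. Nlrc5 was lower at an adjusted p under 0.05 without each replicate in turn in both genotypes. The order of its group means was KO spleen, WT spleen, KO mLN and WT mLN. WT spleen and KO mLN, neighbours in this order, overlapped narrowly, and the genotypes within each organ did not pass the test.

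B2m took the opposite direction. It rose from 4526 ± 735 CPM in WT spleen to 6241 ± 309 in WT mLN and from 4880 ± 494 CPM in KO spleen to 6703 ± 368 in KO mLN (mean ± SD, n = 4, 3, 4 and 4). Every mLN sample was above every spleen sample. The log2 fold change was 0.50 ± 0.14 in WT and 0.46 ± 0.09 in KO (edgeR adjusted p = 0.0297 and 0.00285), or 1.41-fold and 1.37-fold. In WT, the call was lost in 6 of 7 fits without 1 replicate (edgeR adjusted p from 0.060 to 0.0891) and kept without WT spleen replicate 3 (0.00579), while in KO it was kept in each such fit. These fits did not pair the organs. With the replicate number as a block, B2m in WT had a log2 fold change of 0.62 (edgeR adjusted p = 0.000114).

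None of the 3 heavy chains passed the test between the organs. H2-D1 had log2 fold changes between mLN and spleen of 0.07 ± 0.09 in WT and 0.0049 ± 0.05 in KO, H2-K1 of 0.10 ± 0.13 and 0.11 ± 0.06, and H2-T23 of 0.07 ± 0.16 and 0.06 ± 0.08, with edgeR adjusted p-values from 0.239 to 0.962. The 95% interval of H2-D1 in KO reached from −0.12 to 0.12, apart from that of B2m in the same fit (0.27 to 0.65). With the replicate number as a block in WT, H2-T23 was called as well (log2 fold change 0.24, edgeR adjusted p = 0.0215), beside B2m at 0.62 and Nlrc5 at −0.64. Of 11 other class I heavy chains and class I-like genes tested, 1 fell and 1 rose in WT mLN, and 1 fell and 3 rose in KO mLN. The non-classical H2-Q4 fell in both genotypes (log2 fold change −1.24 in WT and −1.62 in KO). Cd1d1, which presents lipids, rose in both (0.47 and 0.64), and H2-M3 (0.28) and Mr1 (0.63), which present bacterial peptides and metabolites, rose in KO. The calls held in each fit without 1 replicate, except that Cd1d1 in WT held in 2 of 7.

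The genes for peptide supply had log2 fold changes below 0 that did not pass the test. In KO, Tap1, Tap2 and Tapbp had log2 fold changes of −0.20 ± 0.07, −0.19 ± 0.07 and −0.14 ± 0.06 (edgeR adjusted p = 0.0718, 0.0863 and 0.113), and in WT of −0.26 ± 0.19, −0.25 ± 0.17 and −0.21 ± 0.15. With the WT samples paired by replicate number, the 3 values were nearer 0, at −0.080, −0.073 and −0.10. Without KO mLN replicate 3, Tap1 was called in KO (log2 fold change −0.25, edgeR adjusted p = 0.0251). Irf1 fell in KO from 374 to 486 CPM in spleen to 312 to 368 CPM in mLN, with no overlap (log2 fold change −0.34 ± 0.10, edgeR adjusted p = 0.0241). The call for Irf1 was lost when all 15 samples shared 1 fit (adjusted p = 0.253) and in 4 of 8 fits without 1 replicate. In WT, Irf1 had a log2 fold change of −0.24 ± 0.26, which turned to 0.042 when the samples were paired by replicate number and to 0.053 without the libraries highest in haemoglobin reads. Erap1 had −0.14 ± 0.10 in WT and −0.02 ± 0.07 in KO.

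In the other lists, genes were called in both directions between the organs, beside 10.8% lower and 9.7% higher of all genes in WT and 13.9% and 11.4% in KO. Of 10 genes for class I folding, loading and trimming, 2 rose in WT mLN, Bcap31 (log2 fold change 0.41) and Erp29 (0.36), both proteins of the endoplasmic reticulum. In KO mLN, Bcap31 (0.43) and the chaperone calnexin (Canx, 0.22) rose, and the aminopeptidase gene Lnpep fell (−0.35). Without 1 replicate, Bcap31 and Erp29 were each called in 5 of 7 fits in WT. In KO, Canx was called in 3 of 8 such fits, and Bcap31 and Lnpep in 8 of 8. Of 5 immunoproteasome genes, Psme1, which encodes a subunit of the proteasome activator, rose in both genotypes (0.35 in WT and 0.23 in KO), a call that held in 1 of 7 and 3 of 8 fits without 1 replicate. Of 12 class I gene regulators, 0 were called in WT by edgeR, with 3 at an unadjusted p under 0.05, and Rela, a subunit of NF-κB, fell in KO (−0.35).

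Of 14 interferon-γ pathway genes, Ifngr1 (log2 fold change 0.53) and the class II transactivator Ciita (0.68) rose in WT mLN. In KO mLN, the signalling inhibitor Socs1 rose (0.60), and Ifng (−0.78 ± 0.22) and Gbp4 (−0.30) fell. The call for Ifng held in 4 of 8 fits without 1 replicate, that for Gbp4 in 2 of 8 and that for Ciita in 1 of 7, and Ifng had −0.37 ± 0.63 in WT. Of 12 type I interferon response genes, Ifi27l2a rose in both genotypes (0.69 in WT and 0.62 in KO) and Mx1 fell in WT (−0.81). Without 1 replicate, Ifi27l2a was called in 5 of 7 fits in WT and Mx1 in 1 of 7. Genes of these lists that were called between the organs only were named after their values were seen.

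Markers of other cells moved with organ in both directions. The 3 neutrophil markers summed to 74.4 to 432 CPM in spleen samples and 16.4 to 59.3 CPM in mLN samples. The 8 myeloid and dendritic cell markers summed to 121 to 213 CPM in WT spleen and 52.2 to 207 CPM in WT mLN, and 0 of 7 tested were called. In KO, they summed to 117 to 331 CPM in spleen and 82.3 to 99.6 CPM in mLN. Of 6 tested in KO, 4 fell in mLN and 1, Itgax, rose (log2 fold change 1.14). The 2 CD8 T cell markers summed to 1.61 to 4.34 CPM in KO spleen and 18.9 to 28.2 CPM in KO mLN, and to 2.56 to 5.11 CPM in WT spleen and 7.18 to 11.6 CPM in WT mLN. In KO, most of this was Cd8a, with a mean of 0.828 CPM in spleen and 18.4 in mLN. Cd8b1 had means of 1.86 and 4.31 CPM there, and only Cd8a was called. Cd8a ranged from 0.299 to 8.50 CPM in WT mLN. Of the 4 MHC class II genes, H2-Aa and H2-Eb1 rose in WT mLN (1.26 and 1.61), and 0 were called in KO. Without 1 replicate, H2-Aa was called in 4 of 7 fits in WT, H2-Eb1 in 7 of 7, and Itgax in 3 of 8 in KO. Of the 7 T cell markers, 3 rose in WT mLN, and 4 rose and 1 fell in KO mLN. Their part in the values of B2m and Nlrc5 was not tested.

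**Figure D3:**
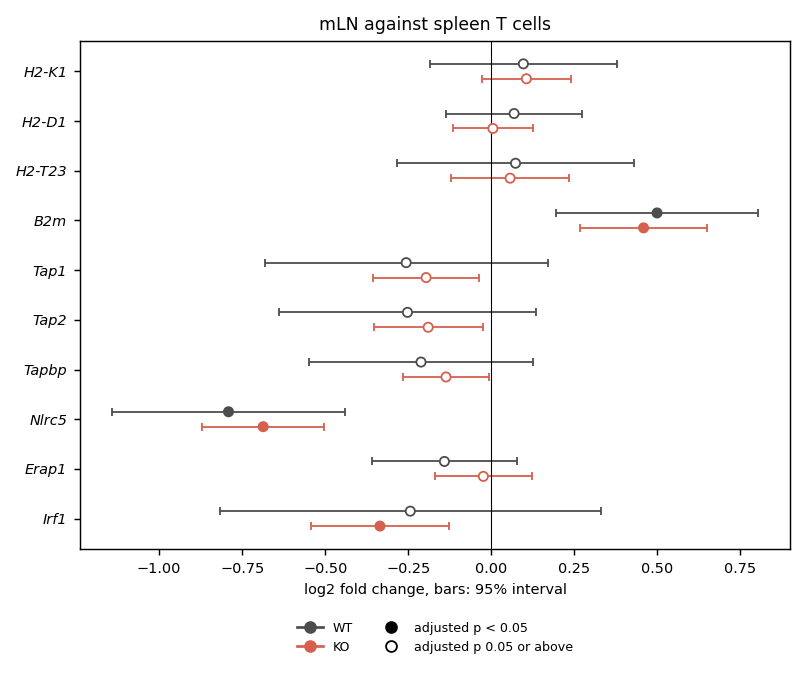
Log2 fold change of mLN against spleen T cells (x axis) with 95% intervals for the 10 genes in WT (grey) and KO (red), with filled points at an edgeR adjusted p under 0.05. B2m lies at 0.50 and 0.46 and Nlrc5 at −0.79 and −0.69 in WT and KO, while the heavy chains lie near 0.

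Whether genotype altered the organ difference was tested as the interaction over all 15 samples. Of 15438 genes, 0% were called by edgeR (652 at an unadjusted p under 0.05, and 2 by DESeq2 at an adjusted p under 0.05), and the 10 genes had interaction terms from −0.08 to 0.13 on the log2 scale (SE 0.09 to 0.28). The intervals reached from −0.68 to 0.52, so that this fit, which did not pair spleen and mLN samples, allows differences of this size in either direction. The median of the 10 terms was 0.045, with 6 above 0. With the replicate number as a block it was −0.11, with 1 above 0, and 0 of the 10 genes were called.

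The genes also varied between samples of 1 group, most of all in WT spleen. WT spleen replicate 3 was the highest of its group in all 10 genes, and replicate 4 was the lowest in 9 of 10, with B2m lowest in replicate 2. In WT mLN, replicate 4 was again the lowest in 8 of 10 genes. The highest sample exceeded the lowest by a median of 1.52 times over the 10 genes in WT spleen and by 1.11 times in KO spleen, with Irf1 at 2.24 times and 1.30 times. The coefficient of variation was larger in WT than in KO for 10 of 10 genes in spleen (medians 18.0% and 4.93%) and for 7 of 10 in mLN (10.2% and 5.29%). Over all genes tested, it was larger in WT for 62.1% in spleen and for 43.7% in mLN. The 10 genes do not count as 10 independent observations here, since they were measured in the same samples, and replicates 3 and 4 were the ends of the WT spleen range in 9 of 10.

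Interferon-γ transcripts varied along with them in part. Ifng stood at 151, 129, 233 and 31.6 CPM in WT spleen replicates 1 to 4 and at 175, 102 and 32.2 CPM in WT mLN replicates 1, 2 and 4. Thus replicate 4 had the lowest Ifng in both organs and replicate 3 the highest in spleen. WT spleen replicates 3 and 4 and WT mLN replicate 4 were also the libraries with the most haemoglobin reads, although replicates 3 and 4 lay at opposite ends for the class I genes. The part of these differences in the class I values was not tested.

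Over the 15 samples, genes whose log2 CPM closely followed the mean of the 10 genes (each gene scaled to its own mean and SD) among 15428 others included Nfkbie (Pearson r = 0.898), Gm15821 (0.891), Gbp4 (0.882) and Il27ra (0.881). Gm15821 overlaps Tap2 on the opposite strand, as given above, so that its reads and those of Tap2 may not be told apart. Of the 10 genes themselves, Irf1, Tap2 and Tap1 followed the mean of the other 9 most closely (r = 0.897, 0.884 and 0.880), followed by H2-T23 (0.826), Tapbp (0.813), H2-K1 (0.704) and H2-D1 (0.638). Erap1 (0.462), Nlrc5 (0.412) and B2m (0.173) followed least. These values are descriptions over samples that share 4 groups and carry no test.

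**Figure D4:**
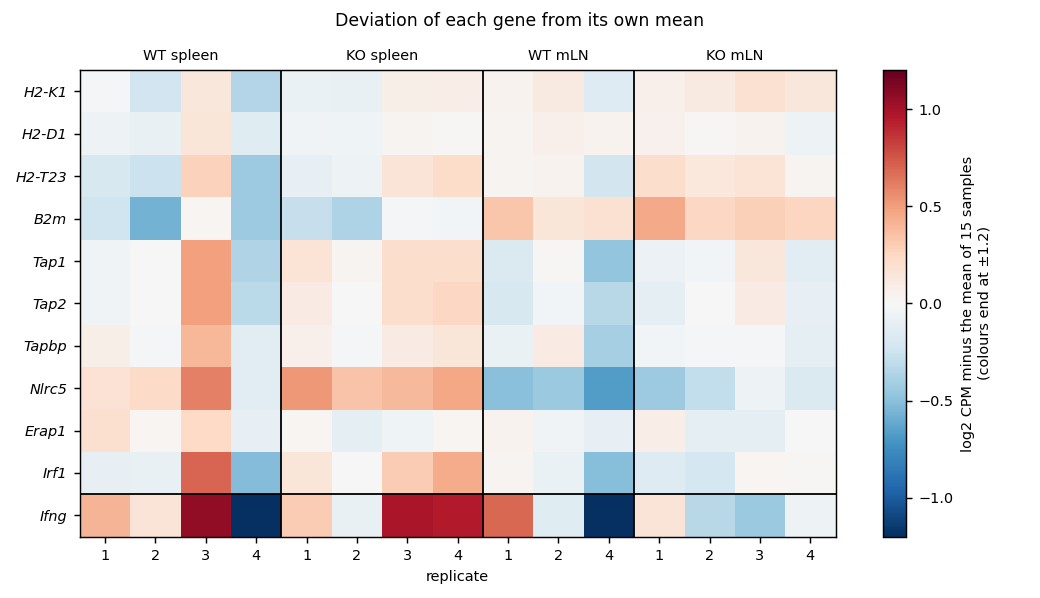
Deviation of log2 CPM (TMM-scaled) from the mean of the 15 samples for the 10 genes and, below the line, Ifng, with 1 column per sample and colours that end at ±1.2. WT spleen replicate 3 is red and replicate 4 blue over most genes, whereas B2m and Nlrc5 change between the spleen and mLN columns in opposite directions.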

How the data were processed

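RNA was sequenced from 15 samples as single-end reads, with libraries that do not mark strand. Per the submitters' processing notes and the methods, the authors used STAR 2.6.1a on GRCm38 with GENCODE M23 and deposited raw counts of reads per gene without normalization, and they used DESeq2 1.22.2. Of uniquely aligned reads, 58.4% to 63.4% were assigned to no gene by the counting. Among 477 genes wholly inside exons on the opposite strand, 236 had 10 or more reads, which points to counting on 1 strand only. In that case, reads from the other strand of a gene are part of the share assigned to no gene. The strand setting is not given in the sources used here.

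Symbols came from GENCODE M21 (55240 of 55421 genes). CPM was the count over the sum on genes. Counts were tested with edgeR 4.0.16 (R 4.3.3) per organ or genotype with its filter on low counts, TMM and the quasi-likelihood test, with Benjamini-Hochberg adjustment and a limit of 0.05. SE is the log2 fold change over the root of F. The procedure was also run on simulated counts, drawn independently for each sample and thus without pairs or outlying libraries. That run cannot show how far the calls depend on any replicate, and no result here rests on it. Python 3.11.15 with pandas 2.3.3 and numpy 2.4.6 served other steps. Reads carry no molecular identifiers, and p-values measure the spread between samples, of which the study gives 1 experiment.

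Alternatives were DESeq2 1.42.0, RLE, library size alone, no filter, 10 counts in every sample, the replicate number as a block, all 15 samples in 1 fit, TMM-scaled CPM and each replicate left out; leaving out the libraries highest in haemoglobin was added after seeing the data. Replicate numbers come from the sample titles. Deviations of same-numbered WT spleen and mLN samples correlated at 0.258, 0.243 and 0.291, so these were taken as pairs in the block alternative. The main tests between organs and of the interaction did not pair samples. The members and lists were chosen with earlier results of these data known. Named are the 10 genes, Prkaa1, Prkaa2, Ifngr1, Psmb8, Psmb9, list genes called between genotypes (at most 6 a list) and the 5 genes most alike, except that 1 gene is not reported here. The cell type markers were lists for T, CD8 T, B, myeloid and dendritic, MHC class II, NK, neutrophil and red cells: the 2 CD8 markers summed to 1.61 to 28.2 CPM and the 3 NK markers to 4.73 to 18.9 CPM.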

Additional observations from a re-analysis of the deposited data

Results flagged for a closer look

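Groups of 4 samples were searched for a sample far from the other 3, which chance gives in about 1 of 20 groups. Of 71 gene and group pairs, 3 (4.23%) had one. H2-D1 in KO spleen replicate 3 stood at 6703 CPM, above 6523 to 6535 in the other 3. Irf9 in KO mLN replicate 3 stood at 182 CPM, above 161 in each of the others. Prkaa2 in KO spleen replicate 1 stood at 0.105 CPM, which is 1 read, against 0 in the others of the group.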

How the results depend on the processing

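No gene of the set was called between genotypes in either organ, or in the interaction, under any alternative. The number of all genes called between genotypes depended on the setting. In spleen it was 185, and 784 by DESeq2, 1422 with no filter on low counts, 17 with the replicate block, 85 with all 15 samples in 1 fit, 119 without the libraries highest in haemoglobin, and 12 to 324 without 1 replicate (324 without WT replicate 3, 12 to 65 without any other). In mLN it was 92, and 563 by DESeq2, 913 with no filter, 1 with the block, 500 with all 15 samples in 1 fit, and 4 to 117 without 1 replicate (4 to 14 without WT replicates 2 or 4 or KO replicates 2, 3 or 4). Same-numbered WT and KO samples had correlations from −0.210 to 0.146 in spleen and −0.053 to 0.0034 in mLN, so they share only a number; in KO, spleen and mLN samples had 0.041 to 0.259, and the block kept all 3 calls there. Between organs in WT, 2980 genes were called, 1472 without the haemoglobin libraries and 1816 to 2780 without 1 replicate, and 1 to 2 of the set without 1 replicate. The interaction gave 0 genes, 2 by DESeq2, 112 with no filter and 3 with the block.

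The replicate block ended the calls between genotypes of Irf9, Ifi27l2a, Rtp4 and Mx1 in spleen (edgeR adjusted p from 0.0656 to 0.107) and of Prkaa1, Ifngr1, Ifi27l2a, Rtp4, Mx1, Usp18, Isg15 and Ifit1 in mLN (0.116 to 0.121), and Prkaa1 in mLN was called in 0 of 7 fits without 1 replicate (0.0533 to 0.161). Psme1 lost its call in WT without the haemoglobin libraries (0.060) and in KO with no filter (0.0744), and Ifng in KO with all 15 samples (0.271).

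Some values that were not called changed sign. Without the haemoglobin libraries, Tapbp was 0.047 between genotypes in spleen, Irf1 was 0.053 and Ifng 0.023 between organs in WT, and the interaction was −0.063 for H2-K1, −0.13 for Tap1, −0.079 for Tap2 and −0.10 for Tapbp. With the block, Irf1 was 0.042 and Ifng 0.015 between organs in WT and the interaction was −0.070 for H2-K1, −0.11 for Tap1, −0.11 for Tap2, −0.020 for Tapbp and −0.039 for Nlrc5. H2-D1 between organs in KO was −0.010 with no filter and −0.000948 with 10 counts in every sample, and the interaction of H2-T23 was 0.019 and Psmb8 between genotypes in mLN 0.0032 with library size alone. Without 1 replicate, KO against WT in spleen ranged from −0.012 to 0.086 for H2-D1, −0.010 to 0.28 for Tap1, −0.030 to 0.25 for Tap2, −0.089 to 0.095 for Tapbp and −0.015 to 0.15 for Psmb8. In mLN it ranged from −0.044 to 0.0014 for H2-D1, −0.061 to 0.19 for Tapbp, −0.036 to 0.034 for Erap1, −0.063 to 0.19 for Irf1 and −0.036 to 0.041 for Psmb8. Between organs, H2-T23 ranged from −0.019 to 0.24, Irf1 from −0.40 to 0.052 and Ifng from −1.01 to 0.053 in WT, and H2-D1 from −0.0098 to 0.035 and Erap1 from −0.056 to 0.0047 in KO. The interaction ranged from −0.068 to 0.093 for H2-K1, −0.17 to 0.085 for H2-T23, −0.15 to 0.050 for B2m, −0.11 to 0.19 for Tap1, −0.10 to 0.18 for Tap2, −0.041 to 0.20 for Tapbp, −0.028 to 0.22 for Nlrc5 and −0.37 to 0.072 for Irf1. The causes were not tested.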
